A study of Drosophila yakuba and Drosophila melanogaster with 20 samples.

Results

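Editing sites that lie in small groups along the D. melanogaster genome are described here. The authors' list of 1238 sites was sorted by chromosome and position, and neighbouring sites no more than 10000 bp apart were joined into tracts. The 528 sites (42.6% of the list) that fell in tracts of 2 to 7 sites are called the members, and they form 158 tracts. The remaining sites are 226 single sites, with no other site within that distance, and 484 sites in 35 tracts of 8 or more. The members were thus chosen by their listed positions alone, so their gaps, spans, tract sizes and chromosome arms are given as descriptions, with no test.

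Adenosine-to-inosine editing is carried out by ADAR, an enzyme that binds double-stranded RNA and deaminates adenosines in it. Inosine pairs like guanosine, so an edited base is read as G where the genome has A, or as C where the genome has T if the transcript runs on the reverse strand. Flies have a single Adar gene, which acts mainly in neurons, and many of its known targets encode ion channels and proteins of synaptic release. A duplex can offer the enzyme several adenosines at once, and for that reason editing is known to come both as isolated sites and as clusters. The enzyme is also known to disfavour a G directly 5′ of the edited A.

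The series studied such editing by ICE-seq, in which acrylonitrile modifies inosine and blocks reverse transcription at it, in heads of D. melanogaster and D. yakuba. Base differences from the genome were analysed here in 4 D. melanogaster libraries, all mock-treated, that is, processed without acrylonitrile. They comprised NextSeq replicates 1 and 2 (86-nt reads) and HiSeq replicates 1 and 2 (50-nt reads), all from adult heads of the strain y; cn, bw, sp, a marker combination also carried by the strain behind the fly reference genome. About 50 heads were used per sample according to the protocol, whose text was written for D. yakuba strains. The labels do not say that replicates came from separate groups of flies, so tests measure the spread between these libraries, and the design text leaves it possible that the instruments share 2 preparations.

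The tables listed 419113 and 1087962 distinct differences in NextSeq replicates 1 and 2, and 115079 and 196988 in HiSeq replicates 1 and 2. They give no read counts, so depth and editing level are unknown, and a site that a library does not list may have been unedited or not covered. No dm3 annotation was used here, so the genes and transcript parts at these positions are not stated, and the labelled tissue was not checked against marker genes.

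The tables show the reference base wherever a read differed from the genome, which gave 17.5% of the bases in 31-bp windows centred on member sites. Stretches around some of the densest member groups could therefore be read in part. They are shown because they carry the spacing patterns described below, and they were chosen after the values were seen. Each is written 5′ to 3′ in the sense of the edited strand and in dm3 coordinates. Capitals mark listed sites, lower case the other bases the tables show, n a base they do not show, and N a listed site with no base shown.
chrX:3236809-3236826, forward strand: nnacaAAaAAAaAtncnn
chrX:10141439-10141456, reverse strand: nnannAnnAANnAgnnan
chr2L:16246149-16246155, reverse strand: AcaaAgt
chr3R:11891222-11891246, reverse strand: nnnnnAAnAnnnnnnnnnnAnnnnn
chr3R:20534043-20534083, forward strand: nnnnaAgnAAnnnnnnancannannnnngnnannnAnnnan
chr4:584002-584045, forward strand: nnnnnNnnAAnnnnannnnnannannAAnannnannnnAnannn
chrX:15299653-15299705, reverse strand: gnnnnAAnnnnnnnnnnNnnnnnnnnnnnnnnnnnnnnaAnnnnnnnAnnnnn

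The first stretch on X has a fully known core of 12 bases, acaAAaAAAaAt. It consists of adenosines apart from a c and the closing t, and 6 of the adenosines were listed sites. The first stretch on 3R holds an adjacent pair, a further site across 1 base, and 1 more site 11 bp away. The stretch on chromosome 4 holds 2 adjacent pairs, and the long stretch on X holds 1. In all of them the sites whose base was known lay on 1 strand.

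Neighbouring sites of a tract ranged from directly adjacent bases to pairs near the joining limit. The 370 gaps between neighbouring members had a median of 38.5 bp, with quartiles at 4 and 841 bp and a range of 1 to 9870 bp. In the tracts of 8 or more, the 449 gaps had a median of 48 bp, with quartiles at 4 and 820 bp. Directly adjacent bases made up 56 of the member gaps (15.1%), and 77 gaps (20.8%) were of 2 to 10 bp. The next classes, 11 to 100, 101 to 1000 and 1001 to 10000 bp, held 78 (21.1%), 75 (20.3%) and 84 (22.7%). The classes held similar shares, and those in the larger tracts differed from those of the members by at most a few points, as the plot of gap classes shows. The counts declined over the shortest distances: 56 gaps of 1 bp, 18 of 2 bp, 15 of 3 bp and 10 of 4 bp. From 5 to 10 bp they were 8, 6, 4, 7, 5 and 4, with no steady decline. A HiSeq read can hold both sites of the 191 gaps under 50 bp, and a NextSeq read those of the 205 gaps under 86 bp.

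**Figure D1:**
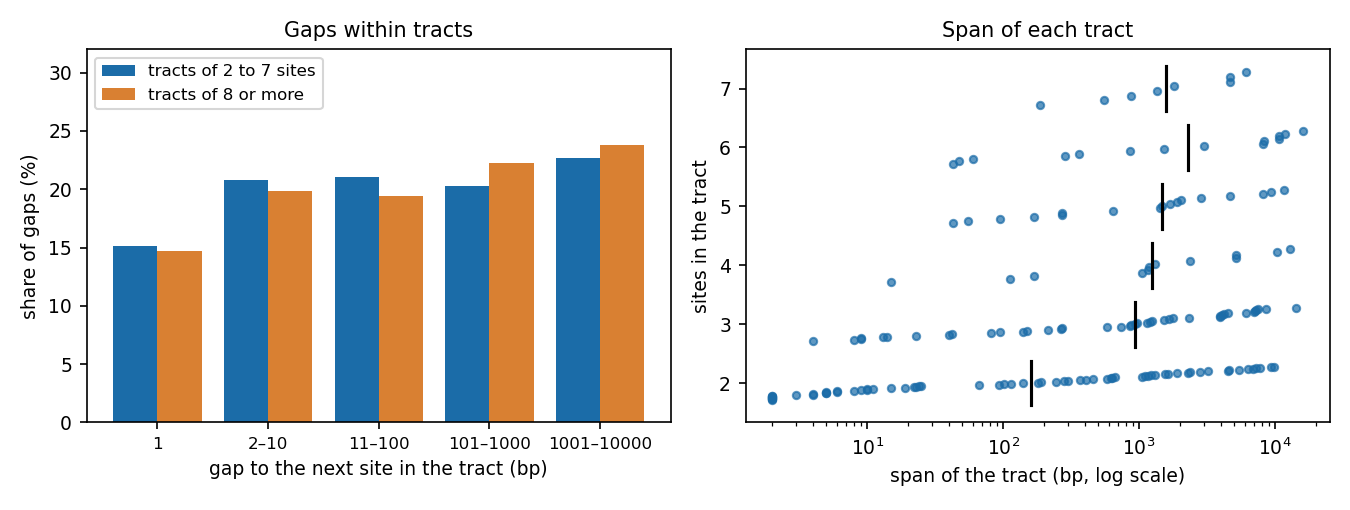
Left: share (%) of gaps between neighbouring sites in each gap class (bp), for the 370 gaps of tracts of 2 to 7 sites and the 449 gaps of tracts of 8 or more; gaps of 1 bp make up 15.1% of the member gaps. Right: span of each of the 158 tracts on a log axis (bp) by number of sites, with points offset vertically within a size and a black line at the median, 160.5 bp for 2 sites and 1581.5 bp for 7.

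The tracts ranged from pairs of neighbouring bases to stretches of more than 10000 bp, of which there were 8. The median span was 702 bp (quartiles 44 and 2981.75 bp, range 2 to 16109 bp), against 10835 bp in the tracts of 8 or more (range 461 to 37377 bp). Of the 158 tracts, 25 (15.8%) spanned at most 10 bp, 41 (25.9%) at most 50 bp, and 72 (45.6%) more than 1000 bp. Most tracts were small in number of sites as well: 66 held 2 sites, 41 held 3, 12 held 4, 17 held 5, 14 held 6 and 8 held 7. Their median spans were 160.5, 940, 1244.5, 1468, 2272 and 1581.5 bp in that order of size. Adjacent pairs were the shortest tracts of 2 sites, the first of 9 in genome order being 2L 11829758 to 11829759, and the longest spanned 9824 bp at X 5260948 to 5270771. Among tracts of 3 sites the extremes were 4 bp at 3L 11169283 to 11169286 and 14156 bp at 3R 3681796 to 3695951. Among tracts of 4 they were 15 bp at 3R 11891227 to 11891241 and 12956 bp at chromosome 4 from 887592 to 900547, where 3 of the 4 sites were in all 4 libraries. Among tracts of 5 they were 43 bp at X 15299658 to 15299700 and 11602 bp at X 12190141 to 12201742.

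The joining distance placed few sites at its edge. The largest gaps inside tracts were 9870, 9830, 9823, 9764 and 9385 bp. The smallest gaps that kept a neighbour out of a member tract were 10118, 10550, 10842, 10903 and 11007 bp. Only 6 member gaps were above 9000 bp.

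Adjacent listed bases occurred in 43 of the 158 tracts (27.2%). The 56 adjacent pairs formed 44 runs of 2 sites and 6 runs of 3, together 106 sites. Of the 66 tracts of 2 sites, 9 (13.6%) were an adjacent pair and nothing else. At least 1 base was known in 50 adjacent pairs, and the reference base was A in 33 of them and T in 17. Where both were known, in 44 pairs, they were the same base every time.

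The members of a tract lay on 1 strand wherever the base could be read, with a single exception. The strand comes from the reference base at detected sites, and no site had conflicting bases in the tables. The base was A at 266 members and T at 194, and it was unknown at 68. A thus made up 57.8% (exact 95% interval 53.2 to 62.4) of the known bases, against 56.0% in the whole list. That interval treats sites as independent, while nearly every tract held a single base, so it is too narrow. Of the 137 tracts with at least 2 known bases, 136 held only A or only T. Of the 158 tracts, 81 had only A, 70 only T and 1 both, and 6 had no known base. Over neighbouring members the base was the same in 298 of 299 pairs in which both were known, 179 of them A with A and 119 T with T. At gaps up to 1000 bp all 230 such pairs had the same base, and at 1001 to 10000 bp 68 of 69 did. The exception was the tract of 6 sites at X 4970796 to 4981512, where a T at the first site was followed, after a gap of 9764 bp, by sites with A. Sites of a tract may lie in the same transcript and are not independent, so no test was made.

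The arms carried the members in much the same order as the list, with 3R, chromosome 4 and the heterochromatin scaffolds above their share. X held 157 members (29.7%, exact 95% interval 25.9 to 33.8) in 43 tracts, against 33.3% of the list. Arm 3R held 130 (24.6%, 21.0 to 28.5) in 37 tracts, against 18.0% of the list. Chromosome 4 held 3.41% (2.03 to 5.33), an interval that includes its 2.58% of the list. The scaffolds held 4.73% (3.09 to 6.91), against 2.58% of the list. These intervals treat sites as independent, while the sites of a tract always share an arm, so the intervals are too narrow. Whether any arm departs from its share of the list was not tested. The counts were 69 on 3L, 66 on 2R, 63 on 2L, 18 on chromosome 4 and 25 on heterochromatin scaffolds, in 23, 22, 21, 4 and 8 tracts. Read the other way, 58.3% of the listed sites on 3R were members, against 38.1% on X, where 213 sites lay in larger tracts. On the scaffolds 25 of 32 listed sites (78.1%) were members and none lay in a larger tract.

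Most members were visible in at least 1 of the mock-treated libraries. The edited base, G for A or C for T, was listed at 460 members (87.1%, exact 95% interval 84.0 to 89.9), close to the 87.6% of all listed sites. All 4 libraries listed 139 members (26.3%, 22.6 to 30.3), against 29.2% of all listed sites. The remaining members divided into 83 in 1 library, 142 in 2, 96 in 3, and 68 (12.9%) in none. The commonest incomplete pattern was presence in both replicate 2 libraries and neither replicate 1 library, which 114 members (21.6%) had, against 19.9% of all listed sites. The reverse, both replicate 1 libraries and neither of replicate 2, held for 6 members (1.14%), against 0.727% of all listed sites.

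Detection differed far more between replicate numbers than between instruments. On NextSeq, 212 members (40.2%, exact 95% interval 35.9 to 44.5) were listed in replicate 1 and 371 (70.3%, 66.2 to 74.1) in replicate 2, against 40.5% and 72% of all listed sites. On HiSeq the numbers were 231 (43.8%, 39.5 to 48.1) and 397 (75.2%, 71.3 to 78.8), against 44.9% and 76.3% of all listed sites. On both instruments replicate 2 thus listed over 30 percentage points more of the members than replicate 1. The mean share was 55.2% ± 21.3 (SD, n = 2) on NextSeq and 59.5% ± 22.2 (SD, n = 2) on HiSeq, which is -4.26 points for NextSeq minus HiSeq. An exact two-sided permutation of the libraries gave p = 0.667, and the smallest p it allows is 0.33. Taken within a replicate number, the difference was -3.60 points in replicate 1 and -4.92 in replicate 2. The pooled difference turned positive, to 10.8 points without NextSeq replicate 1 and 11.5 points without HiSeq replicate 2. NextSeq libraries alone listed 41 members (7.77%, against 7.19% of all listed sites), and HiSeq libraries alone listed 54 (10.2%, against 11.4%). Instrument and read length cannot be told apart here.

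Members were detected more often than single sites and less often than sites of larger tracts, in each library. Over the 4 libraries the mean detected share was 57.3% for members and 42.4% for single sites. The difference was 15.0 points, and it was 16.3 and 13.6 points in NextSeq replicates 1 and 2 and 15.0 points in both HiSeq libraries (SD of the difference 1.07). Members were higher in 4 of 4 libraries, and the exact sign-flip permutation test over libraries, two-sided, gave p = 0.13, the smallest it can give and also the value adjusted over 4 comparisons. Against the larger tracts, at 67.1%, members were lower by -9.76 points, in 4 of 4 libraries and with the same exact permutation p. When sites were joined at gaps of at most 1000 bp, members minus larger tracts was 0.414 points. The share in all 4 libraries ran in the same order, 26.3% of members, 14.2% of single sites and 39.5% of sites in larger tracts.

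**Figure D2:**
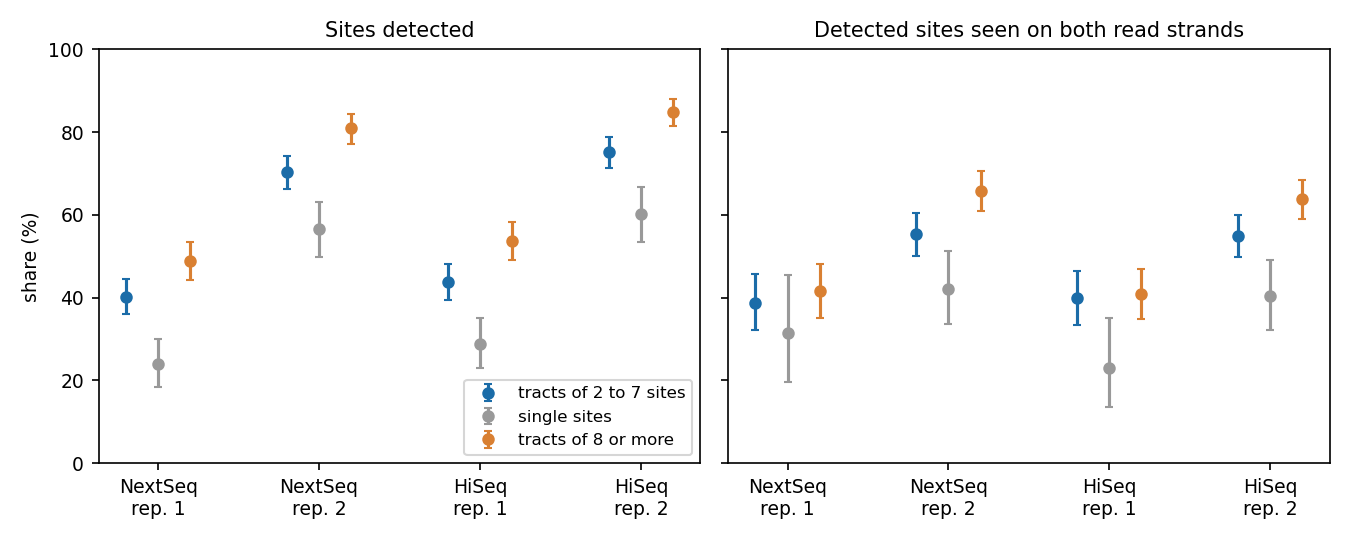
Left: share (%) of listed sites detected in each library for tracts of 2 to 7 sites, single sites and tracts of 8 or more; bars are exact 95% binomial intervals. Right: share (%) of the detected sites seen on both read strands. In each library the members (40.2% to 75.2% detected) lie above the single sites and below the larger tracts.

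Detection within the members did not rise evenly with tract size. Tracts of 2 sites had 18.2% of their sites in all 4 libraries and 84.8% in at least 1. For tracts of 3, 4, 5, 6 and 7 sites the shares in all 4 libraries were 28.5%, 25%, 29.4%, 28.6% and 33.9%. The lowest share was thus at the smallest size and the highest at the largest, while the sizes between them lay within a few points of each other. The value for 7 sites rests on 8 tracts and 19 sites in all 4 libraries. Of these 19 sites, the tract at 3R 20532273 held 7 and that at X 3235465 held 6. Just outside, the 3 tracts of 8 sites had 29.2% of their 24 sites in all 4 libraries. In NextSeq replicate 2 the order differed, with 85.4% detected in tracts of 4 sites and 58.9% in tracts of 7.

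Arms differed in detection, and the heterochromatin scaffolds stood lowest. None of their 25 members was listed in all 4 libraries, and 60% were listed in at least 1. NextSeq replicates 1 and 2 listed 20% and 32% of them, and HiSeq replicates 1 and 2 listed 12% and 32%. Heterochromatin is rich in repeats, and reads were kept at 1 alignment each; the part of that step in these values was not tested. On chromosome 4, a small chromosome with many repeats, 7 of 18 members (38.9%) were in all 4 libraries. Its shares in NextSeq replicate 1 (72.2%) and HiSeq replicate 1 (77.8%) were far above those of all members, and that in NextSeq replicate 2 (61.1%) was below. These members lie in only 4 tracts. In NextSeq replicate 2 the tract of 7 sites at 579338 to 584040 had 1 site listed. The other tracts had 3 of 3, 3 of 4 and 4 of 4 sites listed there, so the lower share came from 1 tract. Arm 3R had 32.3% of its members in all 4 libraries, X 26.8% and 3L 18.8%.

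Detected members were often seen on both strands of the reads, taken from the letter case of the differing base. The share was 38.7% and 55.3% in NextSeq replicates 1 and 2 and 39.8% and 54.9% in HiSeq replicates 1 and 2. For all detected listed sites the shares were 39.2% and 58% on NextSeq and 38.3% and 56.7% on HiSeq. Averaged over libraries, members exceeded single sites by 12.9 points (7.20 and 13.1 on NextSeq, 16.7 and 14.5 on HiSeq), 47.2% against 34.3%. They were below the larger tracts by -5.80 points, with differences between -10.6 and -0.942 points in single libraries. Both differences had the same sign in 4 of 4 libraries, with an exact sign-flip permutation p of 0.13, again the smallest possible. The difference from single sites was 7.29 points when sites were joined at 20000 bp and 7.54 points when each tract weighed the same. At a joining distance of 1000 bp the difference from the larger tracts was 7.53 points.

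The sites of a tract were detected as a complete set far more often in the replicate 2 libraries than in the replicate 1 libraries. In NextSeq replicates 1 and 2, every site was detected in 25 (15.8%) and 70 (44.3%) of the 158 tracts. In HiSeq replicates 1 and 2 the numbers were 28 (17.7%) and 78 (49.4%). A tract with some sites detected and others not was as frequent in every library, in 70, 71, 72 and 69 tracts for NextSeq replicates 1 and 2 and HiSeq replicates 1 and 2. Tracts with nothing detected numbered 63 and 17 in NextSeq replicates 1 and 2, and 58 and 11 in HiSeq replicates 1 and 2. Replicate 2 thus had more complete tracts and fewer empty ones on both instruments. Its libraries also listed more of the members, 70.3% on NextSeq and 75.2% on HiSeq, against 40.2% and 43.8% in replicate 1. The counts of tracts were not adjusted for these shares. Replicate 1 had more detections than replicate 2 in 17 tracts, fewer in 120 and as many in 21. NextSeq had more than HiSeq in 42 tracts, fewer in 64 and as many in 52.

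**Figure D3:**
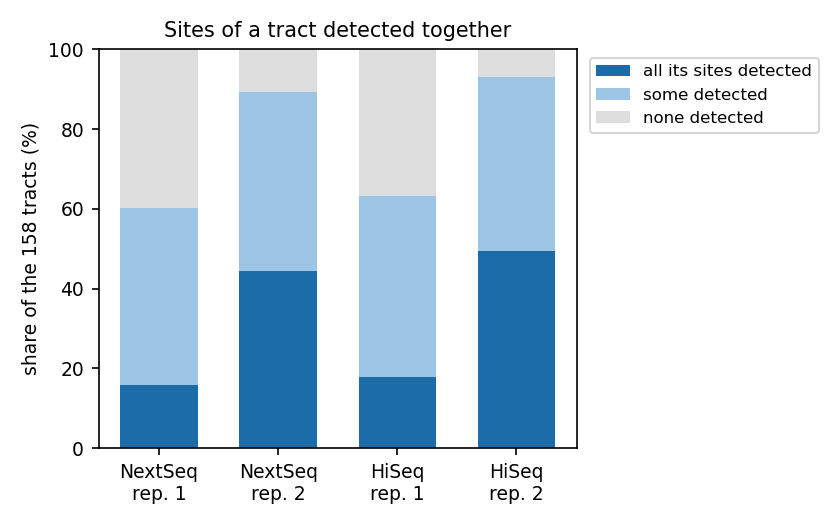
Share (%) of the 158 tracts in which all, some or none of the sites were detected, for each library. Partly detected tracts take a similar share in each library (43.7% to 45.6%), while tracts with no detected site are 39.9% and 36.7% in the replicate 1 libraries and 10.8% and 6.96% in the replicate 2 libraries.

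Taken over libraries, 22 tracts (13.9%) had sites that were all detected in the same set of 1 or more libraries, 13 of them among the 66 tracts of 2 sites. Every site was in all 4 libraries in 8 tracts (5.06%), while 75 tracts (47.5%) had at least 1 such site. In 112 tracts (70.9%) each site was found in at least 1 library, and in 6 tracts (3.80%) no site was found in any. Of the 68 members found in no library, 54 (79.4%) lay in 40 tracts that had a detected site. Most undetected members therefore shared a tract with a detected site, though not always next to it. Such tracts are the rule, since only 6 of the 158 had no detected site.

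With the libraries pooled, the closer a pair of neighbouring members lay, the more often both were detected or both were missing. Over the 4 libraries, adjacent bases were in the same state in 83.5% of comparisons (56 pairs), and sites 2 to 10 bp apart in 78.6% (77 pairs). The share was 73.1% at 11 to 100 bp, 67.3% at 101 to 1000 bp and 60.4% at 1001 to 10000 bp. Neighbouring sites that belonged to different member tracts were in the same state in 53.6% (48 pairs), against 71.8% for all neighbours within tracts. The ordering held from class to class in the pooled values. In single libraries it held from class to class only in NextSeq replicate 1. NextSeq replicate 2 had 80.4% at 1 bp and 83.1% at 2 to 10 bp, and 61.3% at 101 to 1000 bp and 66.7% at 1001 to 10000 bp. HiSeq replicate 1 had 70.1% at 2 to 10 bp and 75.6% at 11 to 100 bp, and HiSeq replicate 2 had 75.6% at 11 to 100 bp and 78.7% at 101 to 1000 bp. In both replicate 2 libraries, pairs of different tracts had about the same share as pairs at 1001 to 10000 bp. The shares were 66.7% and 66.7% in NextSeq replicate 2, and 56.25% and 56.0% in HiSeq replicate 2. In the replicate 1 libraries they were 47.9% and 59.5% on NextSeq, and 43.75% and 59.5% on HiSeq. Pairs share tracts and libraries, and close sites can share reads and coverage, so the values are a description and the part of coverage was not tested. Agreement between unrelated sites also depends on the share detected, from 40.2% of members in NextSeq replicate 1 to 75.2% in HiSeq replicate 2. That level was not calculated, so agreement in libraries of unlike shares is not directly comparable.

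**Figure D4:**
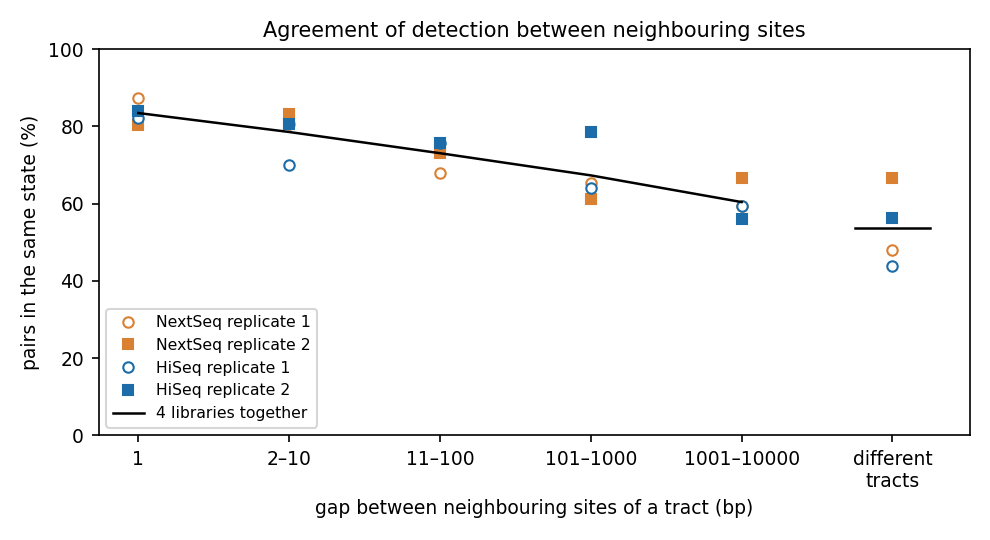
Share (%) of neighbouring member pairs in the same state, both detected or both not, by gap between them (bp) and for neighbours in different tracts; symbols are libraries and the black line is the 4 libraries together. The pooled share is 83.5% for adjacent bases, 60.4% at 1001 to 10000 bp and 53.6% between tracts.

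Adjacent sites had higher detected shares than other members in both replicate 1 libraries and similar shares in the replicate 2 libraries. Sites in adjacent runs had 28.3% in all 4 libraries (30 of 106), against 25.8% of the other members (109 of 422). The share in at least 1 library ran the other way, 84.0% against 87.9%. In NextSeq replicate 1 the shares were 46.2% and 38.6%, in HiSeq replicate 1 51.9% and 41.7%, and in both replicate 2 libraries they were within 3 points of each other. In the sense of the transcript, both bases of the 50 pairs of known strand were detected in 23 and 34 pairs in NextSeq replicates 1 and 2, and in 24 and 39 pairs in HiSeq replicates 1 and 2. When 1 base was detected alone it was more often the 5′ base, in 5 against 2 and 7 against 4 pairs on NextSeq, and in 6 against 4 and 7 against 2 on HiSeq. The 5′ base alone was in at least 1 library in 5 pairs, and the 3′ base alone in 1. For presence in all 4 libraries these counts were nearly even, 6 and 5. The counts are small, the libraries list many of the same pairs, runs of 3 sites enter as overlapping pairs, and no test was made.

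Among the tracts of 7 sites, detection ranged from complete to sparse. At 3R 20532273 to 20534078 all 7 sites, spread over 1806 bp, were listed in all 4 libraries. At X 3235465 to 3236821, the tract with the run of adenosines printed above, 6 of 7 sites were in all 4 libraries. The exception was the second listed A of that run, at 3236815, which NextSeq replicate 2 did not list. Its first site stood 1349 bp upstream of the other 6, which lay within 8 bp. These were the only tracts of 7 with more than 2 sites in all 4 libraries.

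The other tracts of 7 were uneven. At X 10141444 to 10141997, on the reverse strand, NextSeq replicates 1 and 2 detected 5 and 1 sites and HiSeq replicates 1 and 2 detected 4 and 6. The site in all 4 libraries there, at 10141950, was 499 bp from the printed group. At chromosome 4 from 579338 to 584040 the counts were 5 and 1 on NextSeq and 5 and 3 on HiSeq, and the tract's first site, 4669 bp from the next, was in no library. Both of these tracts thus had more sites detected in NextSeq replicate 1 than in NextSeq replicate 2. At 3L 9826400 to 9826587 the order was the usual one, with 2 and 7 sites on NextSeq and 3 and 6 on HiSeq. Its first 4 sites were listed in both replicate 2 libraries and in neither replicate 1 library. At 2L 16751629 to 16752502 the counts were 3 and 3 on NextSeq and 5 and 7 on HiSeq. At 3L 5735289 to 5739976 they were 4 and 3 on NextSeq and 5 and 5 on HiSeq, where 3 sites within 7 bp were missing from NextSeq replicate 2.

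**Figure D5:**
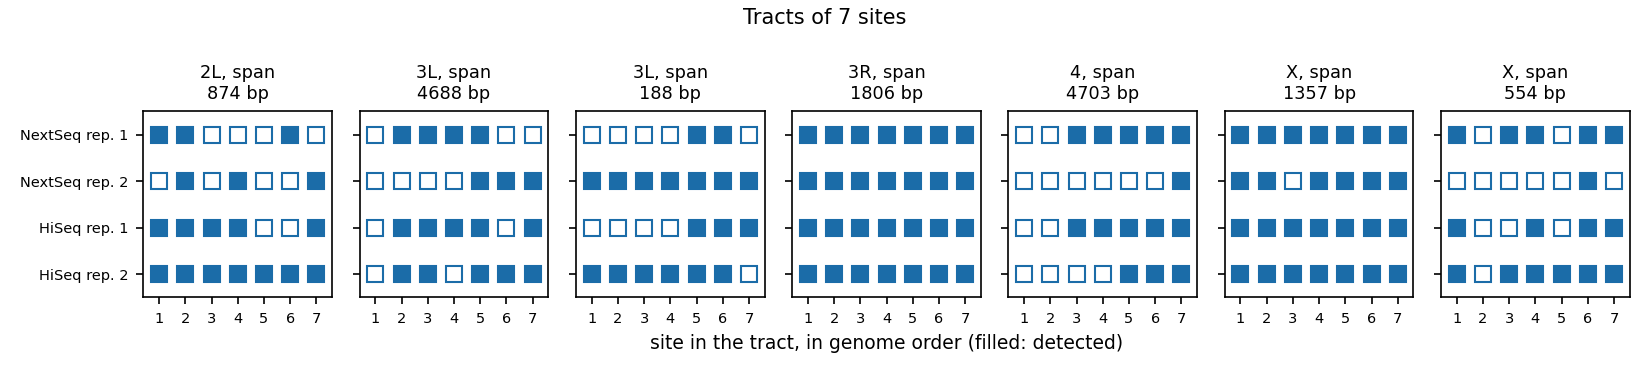
Detection of each site, in genome order, in the 4 libraries for 7 of the 8 tracts of 7 sites, with chromosome and span; filled squares are detected sites. The tract on 3R is filled throughout, the first tract on X lacks 1 square, and the second tract on X has 1 filled square in NextSeq replicate 2.

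Complete detection was also found over long distances. The 6 sites at 3R 15579485 to 15591382 were all in all 4 libraries, although the gap of 9870 bp, the widest of any member tract, separates the first 2 from the rest. They include 2 adjacent pairs, at 15579485 and 15591094. At X 15791327 to 15799627, 5 of 6 sites were in all 4 libraries, and the sixth, 7740 bp from the nearest of them, was in NextSeq replicate 2 alone. At 2L 16246145 to 16248172, 4 of 5 sites were in all 4 libraries. The 5 largest tracts with no detected site had 3 sites at 2L 11926602 to 11928116, 3 at 3L 12204771 to 12204865, and 2 each at 3L 2039908 to 2039918, 2L 20730478 to 20730487 and 3R 15056819 to 15056822.

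Compact tracts included some that depended on the replicate. The 4 sites within 15 bp at 3R 11891227 to 11891241 were all listed in NextSeq replicate 2 and 3 of them in HiSeq replicate 2, while NextSeq replicate 1 and HiSeq replicate 1 listed none. At X 15299658 to 15299700, 0 and 4 of the 5 sites were found in NextSeq replicates 1 and 2, and 2 and 4 in HiSeq replicates 1 and 2. In contrast, the 3 sites within 4 bp at 3L 11169283 to 11169286 had all 3 in NextSeq replicate 1 and HiSeq replicate 1, and 2 in each replicate 2 library. The longest tract of all, 16109 bp at 3R 13699359 to 13715467, began with 3 adjacent sites, of which all but the first were in all 4 libraries, and ended with a site in none. On 3LHet, 3 of the 6 sites between 2481710 and 2481752 were detected.

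Crowded members, with 5 or 6 listed sites in 50 bp, were listed less often than the others in the replicate 2 libraries. In the replicate 1 libraries the direction turned when the scaffolds were left out. In windows of 50 bp, 44 members in 8 tracts were crowded, and 484 members had fewer listed sites. Below that cut, detection rose from 1 to 2 to 3 listed sites in each library. NextSeq replicate 2 listed 69.1%, 74.1% and 76.3% of these, and HiSeq replicate 2 listed 75.6%, 77.2% and 82.8%. With 4 listed sites (16 members) the shares were 87.5% and 62.5%. At least 1 library listed 68.2% of the crowded members, against 88.8% of the others, and all 4 listed 13.6%, against 27.5%. NextSeq replicates 1 and 2 listed 36.4% and 43.2% of the crowded members, against 40.5% and 72.7% of the others. HiSeq replicates 1 and 2 listed 40.9% and 54.5%, against 44.0% and 77.1%. The gap was thus widest in NextSeq replicate 2. Without the scaffolds, 33 crowded members in 6 tracts remained, and the shares detected were 42.4% and 45.5% on NextSeq and 51.5% and 69.7% on HiSeq. The other members off the scaffolds had 41.1% and 74.0% on NextSeq and 44.9% and 77.9% on HiSeq, so crowded members were then higher in both replicate 1 libraries. The 8 tracts differed, from 6 of 6 crowded sites detected in the adenosine run on X to 1 of 6 at X 20668923 to 20668969, a tract named after its values were seen. HiSeq replicate 2 listed 1 of 6 crowded sites in that last tract. In the other tracts off the scaffolds it listed 5 of 5, 3 of 6, 6 of 6, 4 of 5 and 4 of 5. The lower share of crowded members off the scaffolds in HiSeq replicate 2 thus depends on few tracts. The mapping allowed 4 mismatches per read, or 3 in the second step, and its part in these values was not tested. No test of the crowded against the other members was made.

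The libraries also differed in how often they showed any other difference near a member. A base change other than the edited kinds (A-to-G, T-to-C) was listed within 100 bp of 78.6% and 97.9% of the members in NextSeq replicates 1 and 2, and of 47.5% and 58.1% in HiSeq replicates 1 and 2. In NextSeq replicate 1 it stood near 96.2% of detected members and 66.8% of those not detected. In HiSeq replicate 1 these shares were 64.1% and 34.7%, and in HiSeq replicate 2 62.0% and 46.6%. In NextSeq replicate 2 they were 98.7% and 96.2%, so nearly all undetected members there had another difference nearby. Single sites had fewer such neighbours than members, with 60.6% and 92.9% on NextSeq and 31.4% and 42.5% on HiSeq. Among sites with such a neighbour, the detected share of members was 9.67 points above that of single sites on average. These differences are no measure of coverage, and its part in detection was not tested.

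Bases beside the members could be read at few sites. On the 5′ side 30 bases were known, 14 T, 13 A, 2 C and 1 G, so that G made up 3.33% (exact 95% interval 0.0844 to 17.2). At 3 to 10 bases away G made up 17.0% of 759 known bases. On the 3′ side 10 of 48 known bases were G (20.8%, 10.5 to 35.0). The rest of the list had G at 2 of 46 known 5′ bases (4.35%). These bases were read from differences other than A-to-G and T-to-C, neighbouring sites share bases, and no test was made.

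Other kinds of change were rare at member positions. NextSeq replicates 1 and 2 listed 8 and 27 of them, and HiSeq replicates 1 and 2 listed 0 and 2. They came to 36 distinct changes at 35 of the 528 member positions, and 1 of them recurred in a second library. The count at the other listed sites is not given here, so whether this is particular to the members cannot be said.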

How the data were processed

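The values were the authors' list of D. melanogaster editing sites and their tables of base differences of 4 mock-treated libraries, as deposited. Per the file headers, a table holds chromosome, position, reference base and differing base, with no read counts, so depth is unknown. Mapping to dm3 was done, per the labels' protocols, by TopHat 2.0.6 with Bowtie 2.0.2. That step allowed 4 mismatches and reported 1 alignment of each read. Reads left unmapped went through bsmap 2.74 with 3 mismatches allowed. The bsmap command carried an -M option, whose effect on reads with several edited bases was not examined. The submitters' processing notes also name SAMtools 0.1.19. The rule that called sites and differences was not given in the sources used here. Whether these tables contributed to the list is not stated either. Each table was assigned to the sample whose title it carries.

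Listed sites were joined into tracts where neighbours lay no more than 10000 bp apart, and sites of tracts of 2 to 7 were taken. A gap is the difference of 2 positions, and a span counts both end bases. A site was detected in a library that listed G for A, or C for T, at its position. Its strand was read from the reference base, with A taken as forward and T as reverse. Upper and lower case of the differing base were read as the strand of the read, which the files do not define. Shares have exact (Clopper-Pearson) 95% binomial intervals. Libraries were compared by exact permutation, two-sided: NextSeq against HiSeq over 2 and 2 libraries (smallest possible p 0.333), and site classes by sign flips of the within-library differences (smallest possible p 0.125), Benjamini-Hochberg adjusted over the 4 class comparisons. The tracts named are all those of 7 sites, the shortest and longest of each size of 2 to 6, the one with both bases, the 5 with the most sites in all 4 libraries and the 5 largest with no site detected. A crowded tract on X was added after its values were seen. Tracts on arm 2R enter the counts and are not given by position. Members, lists and tests were chosen with earlier results of these data known. The alternatives tried were other joining gaps, weights per tract, other definitions of detection, the omission of scaffolds, of adjacent sites or of each library, and a replicate block. The gene names planned for an annotated genome were not assigned, since no dm3 annotation was used here. The steps were tested on simulated data. Figures were drawn with matplotlib 3.10.9, and values were computed in Python 3.11.15 with pandas 2.3.3, scipy 1.17.1 and numpy 2.4.6.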

Additional observations from a re-analysis of the deposited data

Results flagged for a closer look

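A signal appeared at positions that are not on the site list. Within the 151 tracts of 2 to 7 sites in which 1 base, A or T, was known, or within 100 bp of their ends, 436 positions off the list had the edited kind of change, in the sense of the tract's strand, in 2 or more of the 4 libraries. The opposite strand gave 65 such positions. The 436 positions lay in 105 of the tracts, with at most 22 in a tract. The cause was not tested.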

How the results depend on the processing

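In all, 61 alternatives were run for 5 differences between libraries or classes of sites, and 57 kept the direction. The difference between NextSeq and HiSeq, -4.26 points, ranged from -20.0 to 11.5 when single libraries were left out. It turned positive without NextSeq replicate 1 (10.8) and without HiSeq replicate 2 (11.5). Each such omission leaves 1 instrument with a single replicate number. Within replicate numbers 1 and 2 the difference was -3.60 and -4.92 points. With the replicate number as a block the mean difference remained -4.26 points (exact permutation p = 0.5, the smallest that 2 pairs allow). Whether the numbers pair the libraries is not stated. The detected share of members minus that of larger tracts was 0.414 points when sites were joined at 1000 bp, where the larger tracts hold only 163 sites. For sites seen on both read strands that difference was 7.53 points. Leaving out single libraries gave ranges of -10.1 to -9.44 and -7.41 to -4.21 points for these comparisons, and 14.5 to 15.4 and 11.6 to 14.8 points for members minus single sites. Members exceeded single sites by 9.67 to 17.0 points under the 14 alternatives for detection. For both read strands the range over the 10 alternatives was 7.29 to 14.8 points. The lowest value for detection, chosen after seeing the data, kept only sites with another base difference within 100 bp. Neighbouring sites were in the same state in 71.8% of comparisons, in 74.1% in HiSeq replicate 2 alone, and in 74.8% when detection required both read strands. Joining at 1000, 5000 and 20000 bp gave 702, 593 and 543 member sites. The cause of these shifts was not tested. With no read counts, a site not listed in a library cannot be separated into unedited and not covered, and intervals cover counting error only.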
